A study of Mus musculus with 24 samples.

Results

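The genes described here serve the unfolded protein response and the integrated stress response. They were taken as a list of 33 mouse genes, and for each the probe set of highest mean over all arrays was used. Of these, 31 were named in the platform annotation among 22206 probe sets tested for 19505 genes. Manf and Pdia4 were not analysed here. By branch, 12 measured genes belonged to PERK/ATF4, 11 to ATF6 and 8 to IRE1/XBP1. The genes were listed by pathway, with no threshold on measured values, though earlier results of these data were known.

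RNA came from both hemispheres of 12 male C57Bl/6j mice, 8 to 10 weeks old. In 8 mice 1 middle cerebral artery was blocked for 90 min by the intraluminal method (MCAO) and then reperfused for 30 min, so that tissue was taken 2 h after onset. The other 4 mice had sham surgery. Each hemisphere, ipsilateral (IP) or contralateral (CL) to the surgery, had its own array, which gave 24 arrays, 8 in each MCAO group and 4 in each sham group. A hemisphere holds tissue outside the occluded territory and many cell types, so fewer cells of a type and less RNA per cell cannot be told apart. The IP hemisphere as a whole was the unit, and no core or border zone was separated.

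Proteins that enter the endoplasmic reticulum fold there with the help of chaperones, and an excess of unfolded protein is sensed by PERK, ATF6 and IRE1. PERK and other kinases phosphorylate the initiation factor eIF2α, which lowers most translation but favours that of ATF4, and ATF4 and CHOP (Ddit3) then induce amino acid, redox and death-related genes. The ATF6 protein is cut to a factor that induces chaperones, and IRE1 splices Xbp1 mRNA to yield a factor for chaperones and for disposal of misfolded proteins. All these steps before the target genes act on proteins or on splicing, and a probe-set signal for a whole transcript does not measure them.

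Both arrays of MCAO mouse 3 and both of sham mouse 1, 4 in all, stood apart from the other 20. Their median correlation with the 20 was 0.328 to 0.55, against 0.981 to 0.989 among the 20. Only 3.04% to 5.08% of probe sets lay above background on them, against 37% to 45.1% on the others, background being the level that 95% of an array's negative control probe sets did not exceed. Counts of calls are therefore given for all 24 arrays and for the 20 arrays, and the value of a single gene is on the 20 arrays unless 24 is named. On the 20 arrays neuron, astrocyte and oligodendrocyte markers were above background on every array (8 of 8, 6 of 6 and 5 of 5 measured). Their summed levels overlapped between all 4 groups, at 13.5 to 13.77, 11.47 to 11.85 and 11.6 to 12.08 on the log2 scale. Of the measured neutrophil and monocyte markers (5) and the erythroid one (1), 0 were above background on all 20 arrays.

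Promoter sequences are shown because the branches are known to act through particular promoter elements, some of them shared between branches. RefSeq (GRCm38.p6) had a promoter entry for 29 of the 33 genes, and the 250 bases before the start were searched on both strands. In all, 6 patterns were searched, after the expression values had been seen. The ER stress response element, ERSE, is read here as CCAAT, then 9 bases of any kind, then CCACG. It is known as the element of ATF6 and XBP1 with the factor NF-Y. It was present in 8 of the 29 genes (27.6%) and in 35 of 27025 genes in the table (0.13%). Of the 8, 6 were in the ATF6 branch, 2 in IRE1/XBP1 and 0 in PERK/ATF4. The genes were listed by pathway and the ERSE is a known element of these pathways, so these shares describe the list and test nothing. The matches are printed with the fixed parts in capitals, each 5′ to 3′ on the strand that carries it.
Hspa5, chr2:34772025-34772043: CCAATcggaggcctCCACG
Calr, chr8:84847075-84847093: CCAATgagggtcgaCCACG
Hsp90b1, chr10:86705638-86705656: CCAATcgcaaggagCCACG
Hsp90b1, chr10:86705533-86705551: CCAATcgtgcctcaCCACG
Canx, chr11:50325800-50325818: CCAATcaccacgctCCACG
Pdia6, chr12:17266491-17266509: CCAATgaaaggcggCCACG
Dnajc3, chr14:118937827-118937845: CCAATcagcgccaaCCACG
Creld2, chr15:88819520-88819538: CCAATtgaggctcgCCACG
Syvn1, chr19:6046532-6046550: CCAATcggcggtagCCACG

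The window of Hspa5 (BiP, the main chaperone of the endoplasmic reticulum) lies at chr2:34771840-34772089 on the plus strand and ends next to the start of the gene. It is shown as the model ERSE promoter, with the fixed parts of its match in capitals. Only the exact match is marked, and near matches to the searched patterns stay in lower case.
Hspa5: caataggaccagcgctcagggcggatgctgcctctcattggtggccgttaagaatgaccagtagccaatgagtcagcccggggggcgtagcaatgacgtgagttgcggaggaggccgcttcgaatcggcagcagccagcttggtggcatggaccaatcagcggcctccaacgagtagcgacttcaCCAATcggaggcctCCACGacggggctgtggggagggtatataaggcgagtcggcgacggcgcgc
The window of Ppp1r15a lies at chr7:45526269-45526518 on the minus strand. It is shown because this gene had the greatest IP difference of the list on 20 arrays (on 24, Xbp1 at 0.83 and Creld2 at 0.81 were as high or higher), and its capitals mark a cyclic AMP response element (CRE).
Ppp1r15a: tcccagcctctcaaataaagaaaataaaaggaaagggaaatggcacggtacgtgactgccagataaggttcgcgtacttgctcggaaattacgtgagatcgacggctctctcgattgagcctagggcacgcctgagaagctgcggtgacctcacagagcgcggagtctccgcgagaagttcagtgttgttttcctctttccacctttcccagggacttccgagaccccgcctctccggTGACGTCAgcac
The CRE was searched as TGACGTCA and was found in 1 member, Ppp1r15a, and in 1.77% of all genes. It lies 12 to 5 bases before the start. The C/EBP-ATF element, through which ATF4 is known to act, was searched as TGATGNAA. It was found in Asns, Chac1, Nupr1 and Herpud1 (4 of 29, 13.8%, against 3.91% of all genes). Its strict form TGATGCAA, all of whose matches are also matches of the looser pattern, was found in 3 of these (10.3% against 0.918%), Asns being the one without it. The element ERSE-II, ATTGG, any base, CCACG, was found in Herpud1 alone (0.037% of all genes). The pattern TGACGTGG was found in 0 members and in 0.603% of all genes. A match is a run of letters and was not tested as a site.

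No member passed the test in the IP against the CL hemisphere of MCAO mice. The test was limma with mouse as a block and Benjamini-Hochberg adjustment over all 22206 probe sets at 0.05. It called 0 of 31 members on 24 arrays, where 0.0856% of probe sets were called, and 0 of 31 on 20 arrays, where 0.135% were called. At an unadjusted p under 0.05, 2 of 31 were higher and 0 lower on either set, with 4.13% and 7.1% of all probe sets in either direction. Those 2 were Ppp1r15a and Atf5, both of the PERK/ATF4 branch. On 20 arrays 24 of 31 member differences were above 0, with a median of 0.06, while 48.4% of all probe sets were above 0 with a median of 0.00. The 24-array values were 24 of 31, a median of 0.07 and 49.4%.

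How far these data bound a difference in signal can be read from the intervals. On 20 arrays the 95% interval lay within 1 log2 unit of 0 for 31 of 31 members and within 0.5 for 29. On 24 arrays it did so for 31 and 18. Of the 31 members, 22 were above background on all 20 arrays, 5 on some of them and 4 on 0 (Atf5, Trib3, Chac1 and Sesn2). For a signal below background a narrow interval does not bound a change of the transcript. The 24-array side differences ran from -0.39 to 0.58 in PERK/ATF4, from -0.02 to 0.37 in ATF6 and from -0.12 to 0.18 in IRE1/XBP1. The 20-array medians were 0.07 for PERK/ATF4, 0.06 for ATF6 and 0.00 for IRE1/XBP1, and no test of a difference between branches was made.

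**Figure D1:**
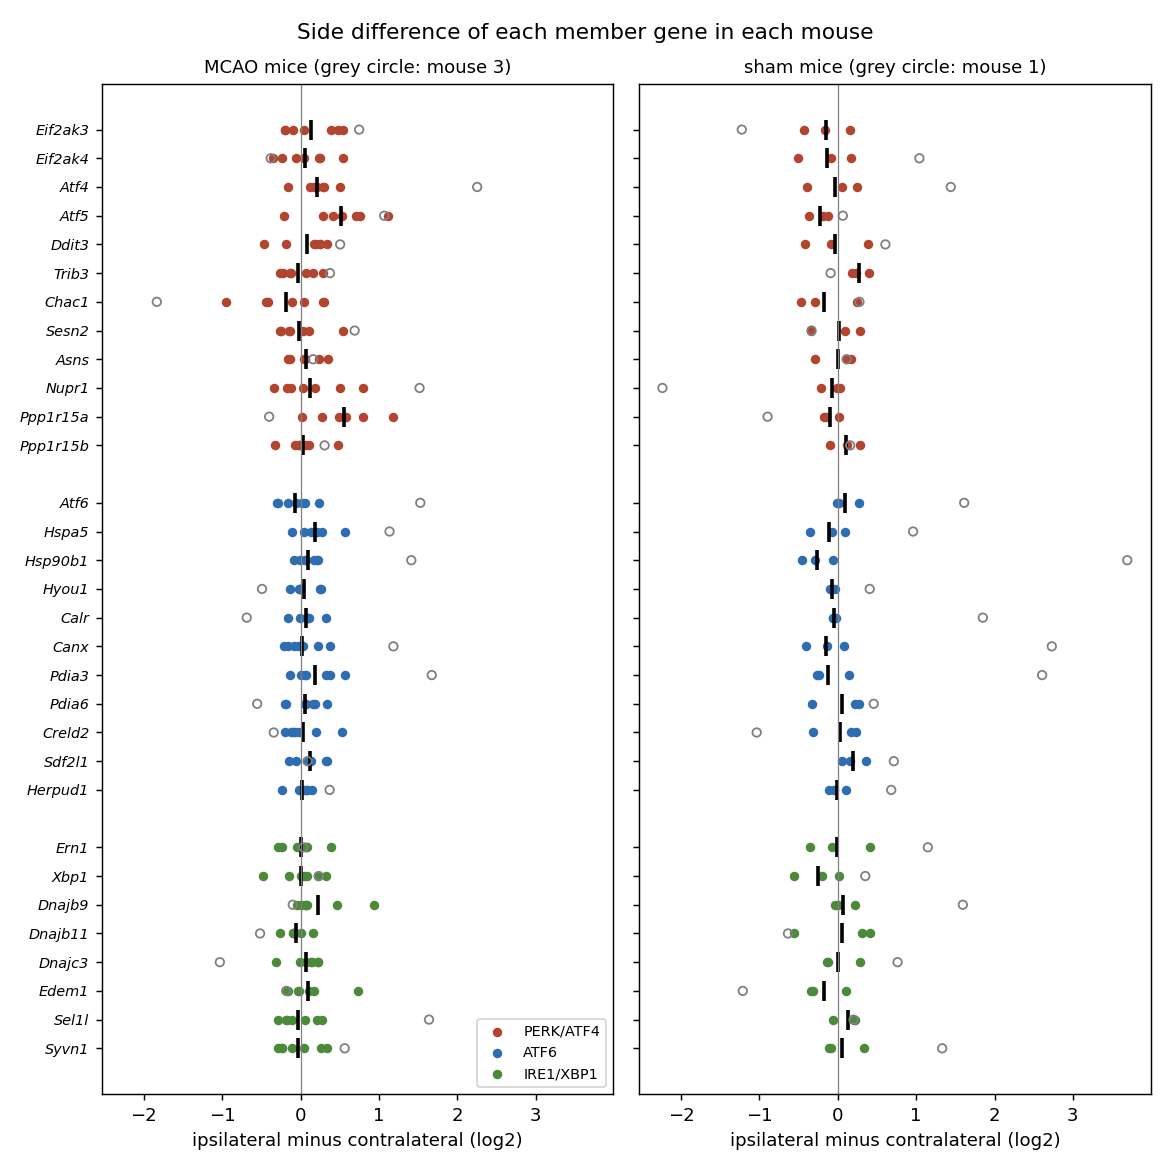
Ipsilateral minus contralateral log2 signal (x axis) of each of the 31 genes (rows, coloured by branch) in each MCAO mouse (left) and sham mouse (right). Coloured points are the 7 and 3 mice other than MCAO mouse 3 and sham mouse 1, black bars their means, and grey circles those 2 mice, which lie far out for several chaperones, up to 3.69 for Hsp90b1.

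In the PERK/ATF4 branch Ppp1r15a had the greatest side difference in MCAO mice on 20 arrays, Atf5 having it on 24, and the greatest IP difference between surgery groups on both sets. It encodes GADD34, the stress-induced subunit that directs a phosphatase to eIF2α and so ends the translational block. Its log2 signal in the IP hemisphere of the 7 MCAO mice was 5.23, 5.66 and 5.83 (lowest, median, highest), and 4.54, 5.03 and 5.39 in their CL hemisphere. In the 3 sham mice it was 4.91, 4.79 and 4.47 on the IP side and 5.06, 4.96 and 4.45 on the CL side. MCAO mouse 3 had 4.95 and 5.35, and sham mouse 1 had 4.48 and 5.38, on the IP and CL side. All MCAO IP values therefore lay above all sham IP values, on 20 and on 24 arrays, whereas the CL groups overlapped. The IP values that the 24 arrays add, 4.95 and 4.48, were below the background of their arrays, 7.41 and 7.476, and so add little to the separation.

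The signal of Ppp1r15a was dim. It was above background on 4 of the 7 IP and 1 of the 7 CL arrays of MCAO mice, and on 0 of 6 arrays of the 3 sham mice. With each dim sham value set to background, and MCAO values kept as measured, the mean IP difference was -0.03. With the dim CL values of MCAO mice set to background in the same way, the mean side difference was 0.05, so no fold is given. As measured, the IP minus CL difference in MCAO mice was 0.56 ± 0.12 (SE) on 20 arrays (adjusted limma p 0.136), with 7 of 7 mice above 0. On 24 arrays it was 0.44 ± 0.16 (adjusted limma p 0.94), with 7 of 8 mice above 0. A difference above 0 in 7 of 7 mice was seen in 1 of 31 members and 1.22% of all probe sets, and one in 8 of 8 mice in 0 members and 0.707%.

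Between surgery groups the IP difference of Ppp1r15a was 0.82 ± 0.16 (95% interval 0.48 to 1.16), with an adjusted limma p of 0.0717 on 20 arrays. On 24 arrays it was 0.81 ± 0.22 with an adjusted p of 0.968. It was not past the threshold in either fit. With limma's array weights on 24 arrays it passed, at 0.54 for the side difference (adjusted p 0.0308) and 0.85 between surgery groups (0.0284). It also passed on 20 arrays once dim probe sets were left out, at adjusted p 0.023 and 0.0212, a setting added after its p was known. Of all fits run, 33 of 35 for the side difference and 29 of 31 between surgery groups did not call it. Groups that did not overlap, with MCAO IP above sham IP, were seen on 10 arrays in 1 of 31 members and 1.4% of all probe sets, and on 12 arrays in Ppp1r15a and 0.117%. The arrays that make up the 12, of MCAO mouse 3 and sham mouse 1, held its signal below background. On the 10 IP arrays the summed endothelial marker level was 9.09 to 9.34 after MCAO and 8.64 to 8.93 after sham surgery, without overlap. Of these 6 markers, 3 were above background on all 20 arrays and 0 were called, and their part in the result was not tested.

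Ppp1r15b, which encodes the constitutive partner of the same phosphatase, had no such separation. Its log2 signal was 5.81, 6.44 and 6.57 in the IP and 6.10, 6.33 and 6.54 in the CL hemisphere of the 7 MCAO mice, and 6.16, 6.45 and 6.41 on the IP side of the 3 sham mice. The IP groups overlapped, and the difference between surgery groups was 0.01 ± 0.16 with an interval of -0.34 to 0.36.

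Atf5 encodes a factor translated, like ATF4, when eIF2α is phosphorylated. Its probe set was above background on 0 of 24 arrays, so no fold is given. Its IP log2 signal was 4.15, 4.43 and 4.82 in the 7 MCAO mice and its CL signal 3.22, 3.84 and 4.40. In sham mice it was 4.36, 4.17 and 4.10 on the IP side and 4.55, 4.54 and 4.22 on the CL side. The MCAO hemispheres overlapped, and the IP side was higher in 6 of 7 mice. The side difference was 0.51 ± 0.13 on 20 arrays (adjusted limma p 0.284) and 0.58 ± 0.14 on 24 (0.354). Between surgery groups the IP difference was 0.24 ± 0.15 and the CL difference -0.50 ± 0.23 on 20 arrays, with adjusted p of 0.772 and 1.

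Atf4, the transcription factor of the branch, had a bright signal. It was 8.98, 9.15 and 9.35 in the IP and 8.61, 9.07 and 9.14 in the CL hemisphere of the 7 MCAO mice. In the 3 sham mice it was 8.55, 9.05 and 8.94 on the IP side and 8.94, 8.81 and 8.89 on the CL side. The groups overlapped, although 6 of 7 MCAO mice were higher on the IP side. The side difference was 0.20 ± 0.10 on 20 arrays (adjusted limma p 0.724), and 0.46 ± 0.23 on 24, where MCAO mouse 3 alone had 2.25 and its CL array was below background. The IP difference between surgery groups was 0.32 ± 0.13 (adjusted p 0.628).

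Ddit3 encodes CHOP, the death-linked factor of the branch. Its log2 signal was 6.56, 6.98 and 7.12 in the IP and 6.60, 6.75 and 7.08 in the CL hemisphere of the 7 MCAO mice, and 6.89, 6.44 and 7.14 on the IP side of the 3 sham mice. All groups overlapped. The side difference was 0.08 ± 0.12 on 20 arrays, with an interval of -0.18 to 0.33, and the second Ddit3 probe set gave 0.03 ± 0.12. The IP difference between surgery groups was 0.07 ± 0.17.

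The sensors of the branch did not pass either. Eif2ak3 (PERK) had 6.70, 6.98 and 7.37 in the IP and 6.53, 6.90 and 7.10 in the CL hemisphere of the 7 MCAO mice, and 6.54, 7.00 and 7.18 in the sham IP hemispheres. Eif2ak4 (GCN2, the sensor of uncharged tRNA) had 6.16, 6.37 and 6.67, 5.78, 6.42 and 6.61, and 6.15, 6.61 and 6.20 in the same groups. Both sets of groups overlapped, with side differences of 0.14 ± 0.11 and 0.06 ± 0.11.

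Of the genes that ATF4 and CHOP are known to induce, Trib3, Chac1 and Sesn2 were above background on 0 of 20 arrays. Trib3 is a pseudokinase that restrains the pathway, Chac1 degrades glutathione and Sesn2 restrains mTORC1. Their side differences on 20 arrays were -0.03 ± 0.09, -0.18 ± 0.14 and -0.02 ± 0.11. Chac1 carried the lowest value of the list on both sets, -0.39 ± 0.20 on 24 arrays. Asns, asparagine synthetase, was well measured, at 8.82, 8.93 and 9.10 in the IP and 8.58, 8.95 and 9.05 in the CL hemisphere, with a side difference of 0.06 ± 0.09. Nupr1, a stress-induced chromatin protein, had a side difference of 0.13 ± 0.12, and an IP difference between surgery groups of 0.35 ± 0.20.

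**Figure D2:**
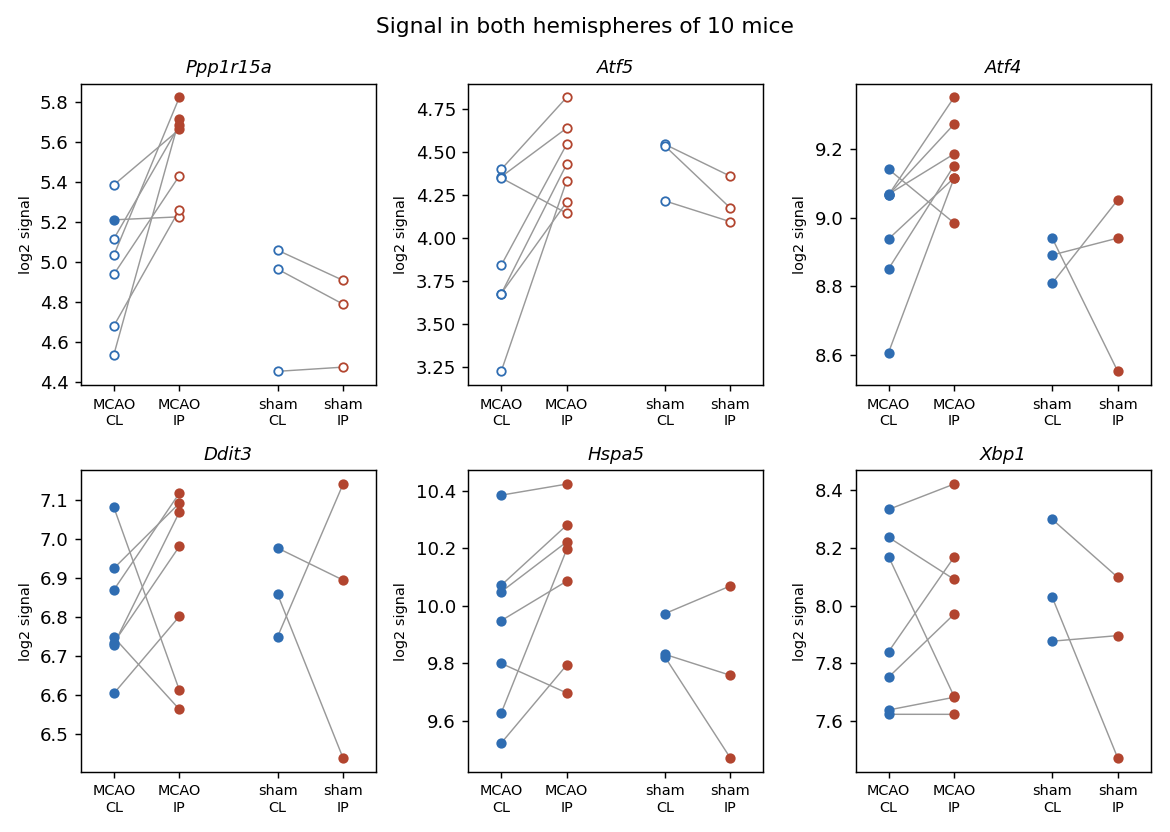
Log2 signal (y axis, own scale in each panel) of 6 genes in the contralateral (CL, blue) and ipsilateral (IP, red) hemisphere of 7 MCAO and 3 sham mice, with lines joining the hemispheres of a mouse and open circles for signals not above background. For Ppp1r15a the 7 MCAO IP points, 5.23 to 5.83, lie above the 3 sham IP points, 4.47 to 4.91, while the other 5 genes overlap there.

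The ATF6 branch holds the chaperones and folding enzymes, and its members were close to 0 on the 20 arrays. Hspa5 had the highest side difference of the branch on 20 arrays, and Pdia3, at 0.37, on 24. Its log2 signal was 9.70, 10.20 and 10.42 in the IP and 9.52, 9.95 and 10.38 in the CL hemisphere of the 7 MCAO mice. In the 3 sham mice it was 9.76, 9.47 and 10.07 on the IP side and 9.83, 9.82 and 9.97 on the CL side. The groups overlapped, with 6 of 7 MCAO mice higher on the IP side. The side difference was 0.19 ± 0.09 (interval -0.01 to 0.38, adjusted limma p 0.75) on 20 arrays and 0.30 ± 0.16 (0.94) on 24. The IP difference between surgery groups was 0.33 ± 0.18 (adjusted p 0.709).

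Atf6, the sensor and factor itself, had 7.83, 8.14 and 8.24 in the IP and 7.89, 8.08 and 8.46 in the CL hemisphere, and 8.34, 8.09 and 8.26 in the sham IP hemispheres. It was the 1 gene of its branch with a side difference below 0 on 20 arrays, -0.07 ± 0.09. The other 9 members of the branch had side differences from 0.02 to 0.18. Pdia3, a disulfide isomerase for glycoproteins, was highest of these at 0.18 ± 0.10, higher in 6 of 7 mice. Sdf2l1, a partner of BiP, had 0.11 ± 0.08 and was above background on 9 of 20 arrays. Hsp90b1 (GRP94, the HSP90 of the endoplasmic reticulum) had 0.09 ± 0.08, Calr (calreticulin) 0.07 ± 0.08, Pdia6 0.06 ± 0.10 and Hyou1 0.05 ± 0.08. Creld2 had 0.03 ± 0.10, Canx (calnexin) 0.02 ± 0.09 and Herpud1, which acts in disposal of misfolded proteins, 0.02 ± 0.08. None of the 11 intervals reached 0.5.

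Chaperone values on 24 arrays rested on the 2 mice whose arrays stood apart. The sham side difference of Hsp90b1 was 0.72 on 24 arrays and -0.27 ± 0.12 on 20, since sham mouse 1 had 3.69 and the next sham mouse -0.06. Canx likewise went from 0.57 ± 0.37 on 24 arrays to -0.16 ± 0.14 on 20. On 24 arrays the IP difference between surgery groups of Pdia6 had an SE of 1.13, against 0.19 on 20 arrays. The smallest adjusted limma p of any member in the sham side comparison was 0.711 on 24 arrays and 0.888 on 20.

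The IRE1/XBP1 branch had the lowest median side difference in MCAO mice on both sets of arrays, 0.00 on 20 and 0.04 on 24. Ern1 (IRE1, the kinase and nuclease) had 4.87, 5.29 and 5.76 in the IP and 5.17, 5.38 and 5.44 in the CL hemisphere of the 7 MCAO mice. It was above background on 6 of 20 arrays. In the sham IP hemispheres it had 5.64, 5.04 and 5.34, so the groups overlapped, and its side difference was 0.00 ± 0.10. Xbp1 had 7.62, 7.97 and 8.42 in the IP and 7.62, 7.84 and 8.33 in the CL hemisphere, and 8.10, 7.47 and 7.90 in the sham IP hemispheres. Its side difference was 0.01 ± 0.10 with an interval of -0.22 to 0.23, and the spliced form was not measured separately.

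Dnajb9 (ERdj4, a BiP co-chaperone known as an XBP1 target) had the highest side difference of the branch, 0.23 ± 0.11, with an adjusted limma p of 0.763. It was higher on the IP side in 6 of 7 mice, but the median mouse had 0.07 and the highest 0.93. Edem1, which marks glycoproteins for disposal, had a side difference of 0.09 ± 0.11 and an IP difference between surgery groups of 0.33 ± 0.14 (adjusted p 0.638). It was above background on 17 of 20 arrays, among them 7 of 7 MCAO and 2 of 3 sham IP arrays. Dnajc3, known to inhibit PERK, had a side difference of 0.06 ± 0.09, and Dnajb11, another co-chaperone, -0.06 ± 0.11. Sel1l and Syvn1, which form a ubiquitin ligase complex for misfolded proteins, both had -0.03, with SEs of 0.09 and 0.10.

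The same side comparison in sham mice called 0 of 31 members and 0% of probe sets on both sets of arrays. At an unadjusted p under 0.05 1 member, Edem1, was lower on 24 arrays (6.26% of all probe sets) and 1, Hsp90b1, on 20 (5.49%). The median member difference was 0.15 on 24 arrays and -0.03 on 20. The interaction of side and surgery also called 0 of 31 members and 0% of probe sets on both sets. At an unadjusted p under 0.05 it held 4 members on 24 arrays (5.12% of all) and 3 on 20 (5.91%), all higher after MCAO. The 4 were Eif2ak3, Atf5, Nupr1 and Ppp1r15a, and the 3 were Atf5 at 0.74 ± 0.23, Ppp1r15a at 0.66 ± 0.21 and Hsp90b1 at 0.36 ± 0.14, with adjusted limma p of 0.67, 0.68 and 0.778. A side difference of these genes is therefore not shown to differ between MCAO and sham mice.

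The IP hemispheres of MCAO and sham mice share no animal and were compared without a block. The test called 0 of 31 members on 24 arrays, where 0.0045% of probe sets were called, and 0 on 20, where 0.149% were. At an unadjusted p under 0.05 there was 1 member on 24 arrays (1.01% of all probe sets) and 3 on 20 arrays (7.48%), all higher, namely Ppp1r15a, Atf4 and Edem1. On 20 arrays 26 of 31 differences were above 0 with a median of 0.17, against 51.9% and 0.01 over all probe sets. On 24 arrays the values were 25 of 31 and a median of 0.38, against 52.6% and 0.03. The branch medians on 20 arrays were 0.15, 0.17 and 0.16 for PERK/ATF4, ATF6 and IRE1/XBP1. In this comparison 30 of 31 intervals lay within 1 log2 unit of 0 and 17 within 0.5 on 20 arrays. On 24 arrays only 10 and 1 did so. As in the side comparison, intervals of signals below background do not bound a change of the transcript.

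The CL hemispheres gave 0 of 31 members and 0% of probe sets on both sets. At an unadjusted p under 0.05 there were 0 members on 24 arrays (0.365% of all probe sets) and 2 on 20 (4.59%), Dnajb11 higher at 0.32 ± 0.15 and Atf5 lower. Dnajb11 was above background on 6 of 7 MCAO and 1 of 3 sham CL arrays. On 20 arrays 17 of 31 differences were above 0 with a median of 0.03, and that of all probe sets was 0.01. On 24 arrays 26 of 31 were above 0 with a median of 0.30, and that of all probe sets was again 0.01. The CL difference of Ppp1r15a was 0.16 ± 0.19. The summed endothelial marker level did not overlap between the CL groups either, at 8.90 to 9.37 after MCAO and 8.67 to 8.84 after sham surgery. The ranges of the 6 microglia markers, 2 of them above background on all 20 arrays, nearly touched, at 8.801 to 9.287 and 8.71 to 8.799. They overlapped on the IP side, at 8.91 to 9.27 and 8.75 to 9.13, and 0 were called. Summed levels of the other marker lists overlapped between the CL groups. The share of all probe sets without overlap between the CL groups was not computed. The part of either cell type in the CL values was not tested. The side, IP and CL comparisons share arrays, so they do not support each other as separate evidence.

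**Figure D3:**
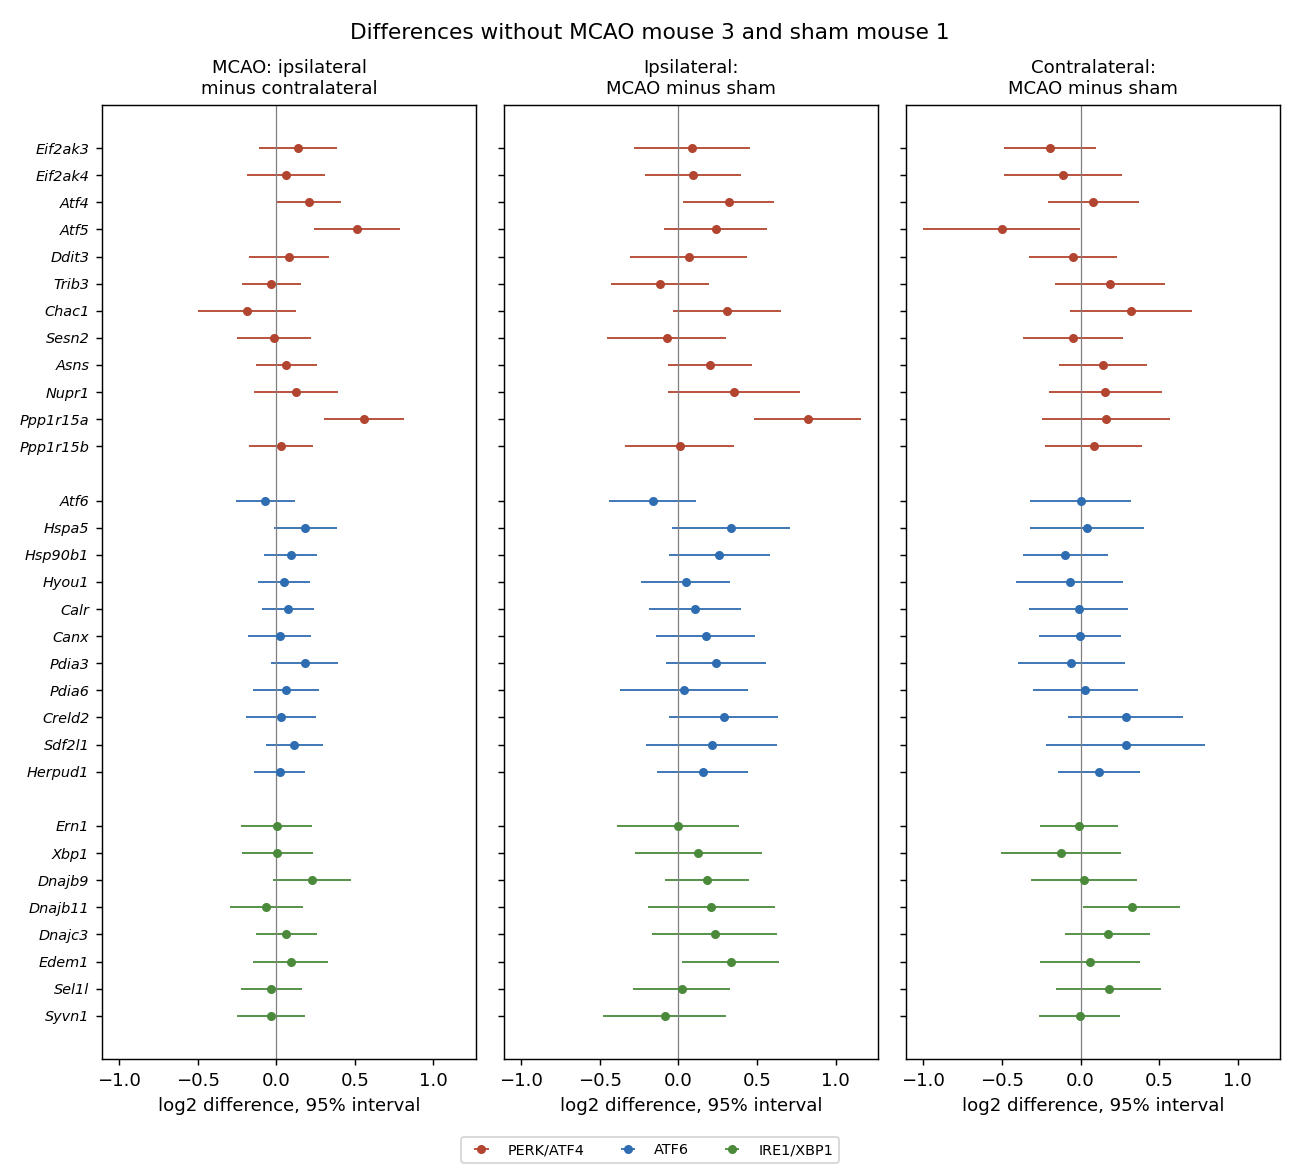
Log2 difference with its 95% interval (x axis) of the 31 genes (rows, coloured by branch) on 20 arrays, for IP minus CL in MCAO mice, and for MCAO minus sham in the IP and in the CL hemisphere. Ppp1r15a stands at 0.56, 0.82 and 0.16 in the 3 panels, and its CL interval includes 0, as do most intervals of the other genes.

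Grouped by the promoter element, the 8 genes with an ERSE had side differences of -0.03 to 0.19 with a median of 0.06 on 20 arrays. The 20 measured genes with a promoter entry and no ERSE had -0.18 to 0.56 with a median of 0.07. In the IP comparison the medians were 0.20 and 0.19, with 0 calls in either group. On 24 arrays the medians were 0.01 and 0.09 in the side comparison and 0.49 and 0.35 in the IP comparison, again with 0 calls.

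A further 77 of 82 listed genes of the same pathways were measured. In the MCAO side comparison 1 of 77 was called higher and 0 lower on both sets, and in the IP comparison 2 were called higher on 20 arrays and 0 on 24. In the sham side, interaction and CL comparisons 0 were called. Of the 77 side differences in MCAO mice, 39 were above 0 on 20 arrays (median 0.003) and 45 on 24 (median 0.03). The 24 of 31 members above 0 on 20 arrays rest on the same 7 MCAO mice. Their median of 0.06 was below the median SE of a member, 0.10. The lists were not compared by a test. In the IP comparison 52 of the 77 (67.5%) were above 0 on 20 arrays, with a median of 0.07, against 51.9% of all probe sets. The gene called in the side comparison was Atf3, a factor induced downstream of ATF4 and by other stress signals. Its IP log2 signal was 5.88, 6.53 and 6.98 in the 7 MCAO mice and its CL signal 4.29, 4.93 and 5.33. In sham mice it was 4.10, 3.44 and 5.09 on the IP side and 3.60, 5.13 and 4.79 on the CL side. The MCAO IP arrays lay above all others, and the CL and sham arrays were all below background. The side difference was 1.60 ± 0.20 (adjusted limma p 0.00435) on 20 arrays and 1.48 ± 0.21 (0.00622) on 24. With the dim CL values set to background, the mean side difference on 20 arrays was 1.94-fold. Between surgery groups the IP value was higher on 20 arrays (adjusted limma p 0.00267 as measured), by 1.83-fold with the dim sham values set to background. These 2 folds are differences of means and carry no interval. Cebpb, another stress-induced bZIP factor, was the second gene called there, at 0.80 ± 0.14 (adjusted p 0.0255) on 20 arrays and 0.83 ± 0.30 (0.968) on 24. The next by p in the side comparison on 24 arrays were Ddit4, an inhibitor of mTORC1, at -0.25 ± 0.12, and Rtcb, the ligase that joins spliced Xbp1, at 0.33 ± 0.17, both with an adjusted p of 0.94. On 20 arrays they had -0.21 ± 0.11 and 0.19 ± 0.09 (adjusted p 0.744 for both), and the next by p there were Eprs1 at 0.21 ± 0.08 (0.613) and Eif2b4 at -0.18 ± 0.08 (0.696), named after their values were seen.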

How the data were processed

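RNA of 24 hemispheres was labelled and hybridised to Affymetrix whole-transcript arrays. The authors deposited 1 signal per probe set, taken here to be on a log2 scale from the range of the values. Affymetrix Expression Console is the tool that the submitters' processing notes name. The sources used here do not give its version, the normalization, the summarization or the annotation build. The 6923 array controls were left out of the tests. Fits used limma 3.58.1 in R 4.3.3 (lmFit, eBayes), with mouse as a fixed block for side comparisons, since the titles give both hemispheres 1 mouse number. On 20 arrays same-mouse deviations correlated at 0.112 to 0.307 (10 pairs). Values are deposited signals with no further normalization. The members and lists were chosen with earlier results of these data known. Every measured member is named, as are other pathway genes called in a comparison and the 3 of smallest p in the MCAO side difference on 24 arrays. Alternatives covered the block, moderation, dim probe sets, centring, quantile normalization, array weights, probe-set choice and left-out mice. The fits were run on simulated data with noise drawn independently for each array, so the mouse block was not put to the test. Promoters came from RefSeq, and figures from matplotlib 3.10.9 in Python 3.11.15. The number of arrays limits the precision.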

Additional observations from a re-analysis of the deposited data

Results flagged for a closer look

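The side difference (IP minus CL, log2) of each member was searched for a mouse far from the others of its group. Of 62 groups 18 had one, where chance alone gives about 1 in 20 groups, and 15 of the 18 came from the mice whose arrays stood apart. MCAO mouse 3 lay far out for Atf4 at 2.25, Atf6 at 1.53, Hsp90b1 at 1.41, Canx at 1.18, Pdia3 at 1.67, Dnajc3 at -1.03 and Sel1l at 1.64. Sham mouse 1 lay far out for Nupr1 at -2.24, Atf6 at 1.61, Hsp90b1 at 3.69, Hyou1 at 0.41, Calr at 1.85, Canx at 2.73, Pdia3 at 2.61 and Dnajb9 at 1.60. The other 3 were Asns in sham mouse 2 at -0.29, Edem1 in MCAO mouse 4 at 0.73 and Sel1l in sham mouse 3 at -0.059.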

How the results depend on the processing

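The number of called members was 0 in 157 of 161 counts under alternatives. It was 1, Ppp1r15a, with array weights and, on 20 arrays, with dim probe sets left out, in the MCAO side and in the IP comparison. Its values there were 0.54 (adjusted p 0.0308) and 0.85 (0.0284) with array weights, and 0.56 (0.023) and 0.82 (0.0212) on 20 arrays without dim probe sets. The latter setting was chosen after seeing the data, with the adjusted p of Ppp1r15a known, and it tests fewer probe sets. Leaving out each mouse in turn, its side difference was 0.33 to 0.65 and its IP difference 0.70 to 0.91 over both array sets, never called. On 20 arrays the adjusted limma p was then 0.0662 to 0.417 and 0.0543 to 0.245. With no replicate block, so that the paired hemispheres were treated as unpaired, the side difference of Ppp1r15a had an adjusted p of 1 on 24 arrays and 0.232 on 20, and no call changed. The median interaction was -0.07 on 24 arrays. It became 0.11 on 20 arrays, 0.11 there with no replicate block and 0.12 there without dim probe sets, and ranged from -0.15 to 0.14 with single mice left out, being 0.07 without sham mouse 1 alone and -0.095 without MCAO mouse 3 alone, so its sign rests on sham mouse 1. For the other medians the leave-one-out range was 0.03 to 0.11 (MCAO side), -0.09 to 0.19 (sham side), -0.05 to 0.60 (IP) and -0.14 to 0.61 (CL).

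A change of sign was counted as a reversal only where a call was involved or both values exceeded their SE. By this definition 36 of 4951 member values reversed, and another 831 changed sign without being counted, so the sign of a small difference is not stable. The sham side difference of Hsp90b1, 0.72 on 24 arrays, became -0.27 on 20 arrays and -0.24 with array weights, and was -0.37 to -0.17 on 20 arrays with a further mouse left out. With single mice left out of the 24 arrays it was -0.27 without sham mouse 1 and 0.72 to 1.115 otherwise. That of Canx became -0.16 on 20 arrays and with array weights, and was -0.28 to -0.03 there with a further mouse left out. With the 4 arrays and 1 more mouse left out, sham side values ranged from -0.07 to 0.20 for Creld2, -0.21 to 0.17 for Ern1 and -0.25 to -0.05 for Pdia3. Interaction values ranged from 0.08 to 0.16 for Calr, -0.16 to 0.21 for Ern1 and -0.01 to 0.20 for Dnajc3. Of each of these 6 ranges 1 setting counted as a reversal. The CL difference of Nupr1, -0.41 on 24 arrays, was 0.16 on 20 arrays both with all probe sets and without dim ones. It counted as a reversal in the latter setting. With all probe sets it was 0.09 to 0.25 on 20 arrays with 1 more mouse left out. The causes were not tested. Member values reported setting by setting (Ppp1r15a, Atf5, Atf4, Hspa5 and Ddit3) were chosen after seeing the data. Signals near background limit Ppp1r15a, Atf5, Trib3, Chac1, Sesn2, Sdf2l1, Ern1, Dnajb11 and Edem1.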
